A study of Mus musculus with 20 samples.

Results

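The collagen chain genes were followed in spinal cord RNA of wild-type mice and of mice with reduced NF-kappaB signalling in astrocytes, before and during experimental autoimmune encephalomyelitis (EAE), an induced autoimmune disease of the central nervous system. A probe was taken as a collagen probe when the symbol on the array's annotation was Col, a number, a and a number, and when it had a value on at least 16 of the 20 arrays. This rule gave 83 probes for 42 genes among 44290 features that carry the symbols of 19087 genes, and 43779 features passed the same minimum. All 83 collagen probes passed it, and 82 of them had a value on all 20 arrays. By class they comprised 27 probes of 11 fibrillar genes, 14 of 6 basement membrane genes, 4 of 3 network genes, 6 of 4 beaded filament genes, 4 of 2 multiplexin genes, 14 of 9 FACIT genes, 10 of 4 transmembrane genes and 4 of 3 other genes. Col6a3, Col6a5 and Col21a1 had no probe among the listed symbols and were not analysed here.

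Collagens are secreted proteins built from alpha chains wound into a triple helix, and each chain has its own gene. Fibrillar chains such as Col1a1, Col1a2 and Col3a1 pack into the fibres that give connective tissue and scars their strength, whereas the type IV chains form the sheet-like mesh of basement membranes around vessels and below the pia. The network chains of types VIII and X form open lattices, type VI chains form beaded filaments, and the multiplexins types XV and XVIII carry proteoglycan side chains in vessel basement membranes. FACIT chains sit on the surface of fibrils. In healthy spinal cord fibrillar collagen is largely found in the meninges, the vessel walls and the nerve roots, and the neural tissue itself holds little of it.

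The study used female C57BL/6 mice. TG mice carried GFAP-IkappaBalpha-dn, a dominant negative inhibitor of NF-kappaB driven by the promoter of the astrocyte gene Gfap; they came from heterozygous TG males and WT females, and WT littermates were the controls. Both genotypes were sampled naive or after EAE had been induced with the myelin peptide MOG35-55 in complete Freund's adjuvant on days 0 and 7 and pertussis toxin on days 0 and 2, at 10, 17 or 80 days post-induction (dpi). All animals carry the age label 60 day, and the design text gives 2 to 4 months. Each array compared 2 animals in 2 dyes, Cy5 and Cy3: TG was set against WT on 3 arrays before induction, on 4 each at 10 and 80 dpi and on 3 at 17 dpi, and 6 further arrays set 2 times against each other within a genotype. The titles name 3 animals per group except WT at 17 dpi, where they name 2. No array joins 10 dpi to another time, so only genotypes were compared at 10 dpi.

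The deposited values are log ratios whose direction the labels do not state. They were read here as TG over WT and as EAE over naive, and the 2 arrays between 17 and 80 dpi in the order of their titles, as 17 over 80 dpi in WT and 80 over 17 dpi in TG. Over 43207 probes, the 80 minus 17 dpi difference so read correlated with the same difference pieced together from the 2 arrays against naive at r = 0.47 in WT and 0.69 in TG. Each pair of estimates shares its 17 dpi animal, and probes are not independent. On the 2 arrays that held WT EAE in Cy3 and WT naive in Cy5, the median of 21 macrophage and microglia probes was 1.78 at 17 dpi and 1.77 at 80 dpi as deposited, which under the reading used here is a higher level in EAE. Reading each ratio instead as Cy5 over Cy3, in the order of the titles, would turn the sign of 7 of the 8 genotype differences that passed at 80 dpi, and those values stand in the closing section. The direction is least secure at 10 dpi. Log ratios hold no absolute level, so no collagen can be called more abundant than another, and in whole cord fewer cells of a type and less RNA per cell cannot be told apart. The SD of all log ratios on an array was 0.286 to 0.730 on 19 arrays and 1.07 on the 17 dpi array that pairs TG animal 3 with WT animal 4. Nfkbia, the gene the transgene is derived from, did not pass the test between genotypes at any time (0.31 ± 0.31 on the log2 scale in naive mice, SE, limma adjusted p = 0.999969), and its probe was not shown here to detect the transgene.

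Of the 42 collagen genes, 33 had an entry in RefSeq's table of gene starts (build GRCm38.p6), with 36 starts in all. The 250 bases before the start are shown for Col1a2, Col6a1 and Col18a1, because each has an entry and a probe that was lower in TG than in WT at 80 dpi whichever animal was left out. For Col18a1 the most upstream of 2 listed starts is used. Capitals mark CCAAT (the CCAAT box) and GGGCGG (the GC box), each searched on both strands; TATAAA and the NF-kappaB consensus were searched in the same way and were not found in these 3 windows, and no capitals means that none of the 4 motifs was found. The coordinates are chr6:4505368-4505617 on the plus strand for Col1a2, chr10:76726045-76726294 on the minus strand for Col6a1 and chr10:77166531-77166780 on the minus strand for Col18a1, and no other annotated gene overlaps them.
Col1a2: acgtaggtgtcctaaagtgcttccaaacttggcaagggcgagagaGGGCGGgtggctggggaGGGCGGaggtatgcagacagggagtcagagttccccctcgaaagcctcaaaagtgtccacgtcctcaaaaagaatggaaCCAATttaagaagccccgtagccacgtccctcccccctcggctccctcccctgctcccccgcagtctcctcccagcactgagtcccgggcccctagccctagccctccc
Col6a1: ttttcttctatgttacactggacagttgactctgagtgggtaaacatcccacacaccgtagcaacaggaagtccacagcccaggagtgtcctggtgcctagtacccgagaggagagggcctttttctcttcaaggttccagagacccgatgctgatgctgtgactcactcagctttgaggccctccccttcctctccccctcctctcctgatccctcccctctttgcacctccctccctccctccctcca
Col18a1: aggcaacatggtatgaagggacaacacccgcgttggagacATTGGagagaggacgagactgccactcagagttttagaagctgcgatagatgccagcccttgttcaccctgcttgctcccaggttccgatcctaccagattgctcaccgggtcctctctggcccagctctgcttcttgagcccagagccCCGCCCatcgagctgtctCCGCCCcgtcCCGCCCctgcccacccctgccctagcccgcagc

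The Col1a2 window holds GGGCGG at -205 and -188 and CCAAT at -109 from the start. The Col18a1 window holds CCAAT at -210 and GGGCGG at -61, -43 and -33, all on the opposite strand. Over the 36 collagen windows CCAAT was found in 36.1%, TATAAA in 13.9%, GGGCGG in 58.3% and the NF-kappaB consensus in 16.7%, and over all 32851 windows of the table in 33.8%, 12.4%, 32.7% and 7.25%. The 6 collagen windows with the NF-kappaB consensus belong to Col27a1, Col4a2, Col6a2, Col6a4, Col9a1 and Col9a2. A match is a string of letters and not a bound site.

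In WT cord 80 days after induction, 7 collagen probes of 6 genes were higher than in naive WT cord and none was lower. They were led by the type I chains, the main fibre-forming collagen of connective tissue, and included 1 probe each for type II, IV, VI and XVIII chains. The 7 higher probes are 8.43% of the collagens, against 0.978% of all probes tested that were higher and 0.11% that were lower. The median over the 83 collagen probes was 0.08 on the log2 scale, against -0.00038 over all probes, with 60 probes above 0, 23 below, and 19 at an unadjusted p under 0.05. All tests are limma's moderated test with Benjamini-Hochberg adjustment over all probes, at an adjusted p under 0.05.

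Col1a2 probe 11210 had a log2 ratio of 2.32 on the single array of WT 80 dpi animal 14 and naive WT animal 4, and -1.97 on the array of WT 17 dpi animal 1 over WT 80 dpi animal 13. Both arrays therefore put the 80 dpi animal higher. Fitted over all arrays, the probe was 2.28 ± 0.12 higher than in naive WT (SE, 3 animals against 3, adjusted p = 1.76e-07), or 4.86-fold. Col1a2 probe 2615 was at 0.29 ± 0.34 and did not pass. Col1a1, the other chain of type I collagen, was higher by 1.13 ± 0.19 at probe 32420 (adjusted p = 0.00666) and by 0.69 ± 0.11 at probe 43637 (adjusted p = 0.00363), with 0.88 and 0.87 on the direct array. Its probe 38567 was at 0.10 on that array and at 0.03 ± 0.06 in the fit, so the 3 probes listed for Col1a1 did not move alike. Col2a1, the main fibre chain of cartilage, rose by 0.94 ± 0.11 at probe 25459 (adjusted p = 0.000492). Its probes 3056 and 21461 were at 0.03 ± 0.08 and 0.10 ± 0.08 and did not pass. The 16 marker genes of cartilage and bone had no probe called among 21, and their median was 0.03. Fibrillar genes whose probes did not pass include Col3a1, which accompanies type I in soft tissue, with 0.80 ± 0.24 at probe 42882 (adjusted p = 0.19) and -0.02 and -0.01 at its other probes. Col5a1, which helps to nucleate type I fibrils, was at 0.53 ± 0.17 and -0.14 ± 0.18, and Col5a2 at 0.13 ± 0.08.

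Among the basement membrane chains, Col4a1 probe 10392 was at 0.71 on the direct array and rose by 0.61 ± 0.12 (adjusted p = 0.0177), while its probes 20634 and 31106 were at 0.01 ± 0.24 and -0.09 ± 0.10. Col4a2, its partner in the most widespread type IV molecule, was at 0.65 ± 0.27 at probe 12471 and 0.17 ± 0.15 at probe 21633, and neither passed. None of the 4 network probes passed: the Col8a1 probes were at 0.53 ± 0.33 and 0.16 ± 0.07, and the range over the class was 0.00 to 0.53. Col6a1, a chain of the beaded filaments of type VI, had 0.90 on the direct array and rose by 1.00 ± 0.13 (adjusted p = 0.000821). Its partner Col6a2 was at 0.21 ± 0.11 and 0.09 ± 0.12. Col18a1, the source of endostatin, rose by 0.75 ± 0.14 at probe 39993 (adjusted p = 0.0128) and was at 0.24 ± 0.09 at probe 22449. Col15a1 was at 0.97 ± 0.35 at probe 34622, which lacks a value on 1 array, and at 0.13 ± 0.42 at probe 30756. Of the 14 FACIT probes none passed, with Col12a1 at -0.06 ± 0.19 and Col14a1 at 0.40 ± 0.17 and -0.04 ± 0.77.

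The time comparisons rest on 1 direct array each, joined to the rest through shared groups, and 1 animal can decide a call. Without WT 80 dpi animal 14 or naive WT animal 4, the pair on the direct array, the probes of Col1a1 and Col6a1 did not pass, and the number called fell to as few as 1. Col4a1 probe 10392 kept its call in only 1 of 6 cases with 1 animal left out, and Col18a1 probe 39993 in 2. Col2a1 probe 25459 did not pass without naive WT animal 4. Col1a2 passed whichever of the 6 animals was left out, at 2.26 to 2.35.

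**Figure D1:**
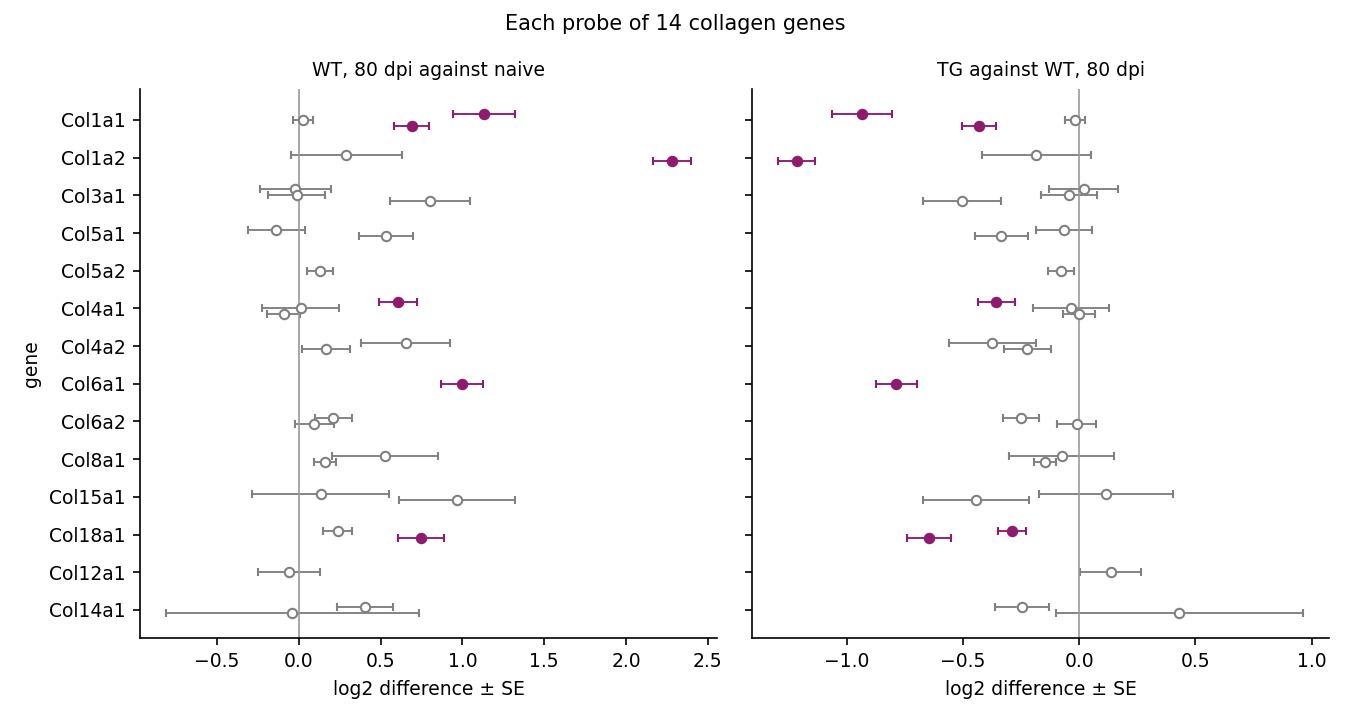
Log2 difference with its SE for each probe of 14 collagen genes, for WT at 80 dpi against naive (left) and for TG against WT at 80 dpi (right). Filled points passed limma's test at an adjusted p under 0.05, and probes of one gene often lie apart, as for Col1a1 (1.13, 0.69 and 0.03 on the left).

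At 17 dpi in WT cord the picture was different: 6 collagen probes were lower than in naive WT and none was higher. These are 7.23% of the collagens, against 7.76% of all probes that were lower and 8.38% that were higher, so the share of lower probes was near that of the array as a whole. Col6a1 was at -1.20 on the direct array of WT animal 1 at 17 dpi and naive WT animal 2 and fell by 0.75 ± 0.13 in the fit (2 animals against 3, adjusted p = 0.00123). Col18a1 probe 22449 was at -0.76 on that array and fell by 0.57 ± 0.09 (adjusted p = 0.000573).
Col4a2 probe 21633 fell by 0.54 ± 0.15, the fibrillar chains Col27a1 and Col11a1 by 0.32 ± 0.10 and 0.26 ± 0.08, and the FACIT chain Col9a2 by 0.24 ± 0.07 (adjusted p from 0.0204 to 0.038). None of the 6 passed without WT animal 1 or naive WT animal 2, the pair on the direct array. The type I chains did not pass: Col1a2 probe 11210 was at 0.35 ± 0.12 (adjusted p = 0.057), and the 3 Col1a1 probes were at -0.39 ± 0.19, -0.05 ± 0.06 and 0.05 ± 0.11. Col4a1 probe 10392 was at 0.30 ± 0.12, and the Col8a1 probes at 0.12 ± 0.33 and -0.11 ± 0.07. Col5a1 was at -0.48 ± 0.18 and 0.25 ± 0.17, Col4a2 probe 12471 at -0.74 ± 0.28 (adjusted p = 0.087) and Col15a1 at 0.55 ± 0.33 and 0.19 ± 0.43, and the probes of Col3a1, Col5a2, Col6a2, Col12a1 and Col14a1 lay between -0.19 and 0.21. Of 20 endothelial marker probes for 12 genes, 6 were lower and 1 was higher, with a median of -0.46. Markers of other cell types moved too. Of 15 oligodendrocyte probes 11 were lower (median -0.82), of 8 red blood cell probes 4 (-1.04) and of 20 neuronal probes 5 (-0.58), and none was higher. Of 21 macrophage and microglia probes, 19 were higher and 1 was lower (median 2.19). Their part in the result was not tested.

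From 17 to 80 dpi, 12 collagen probes of 9 genes rose in WT cord and none fell. They are 14.5% of the collagens, against 3.82% of all probes that rose and 3.99% that fell. By class they were 5 fibrillar, 2 basement membrane, 2 multiplexin, 1 network, 1 beaded filament and 1 FACIT probe. In the fibrillar class Col1a2 rose by 1.93 ± 0.12 (adjusted p = 1.94e-06), Col1a1 by 1.52 ± 0.19 and 0.64 ± 0.11, Col2a1 by 1.04 ± 0.11 and Col27a1 by 0.41 ± 0.10. In the basement membrane class both Col4a2 probes rose, by 1.39 ± 0.27 and 0.71 ± 0.15. The network chain Col8a1 rose by 0.27 ± 0.07 at probe 19838 (adjusted p = 0.0301). Col3a1 did not pass at any probe (0.59 ± 0.25, 0.18 ± 0.18 and -0.10 ± 0.22), nor did Col5a1 (0.34 ± 0.18 and 0.28 ± 0.17) or Col4a1 (0.31 ± 0.12, 0.26 ± 0.24 and 0.08 ± 0.10).
Col6a1 rose by 1.75 ± 0.13 (adjusted p = 6.28e-06), which is 3.36-fold, Col18a1 by 1.13 ± 0.14 and 0.81 ± 0.09, and Col9a3 of the FACIT class by 0.45 ± 0.13. Of the 12 probes, 5 kept their call whichever of the 5 animals was left out, namely Col1a2 probe 11210, Col6a1, Col1a1 probe 32420, Col2a1 probe 25459 and Col18a1 probe 22449. Col18a1 probe 39993 did not pass without WT animal 1 at 17 dpi, nor Col4a2 probe 12471 without WT animal 14, and the other 5 failed in 2 to 4 cases, the network probe of Col8a1 in 4. Markers of several cell types moved with this rise: 11 of 20 fibroblast probes were higher at 80 than at 17 dpi and none was lower (median 0.64), as were 9 of 26 basement membrane partners and 6 of 8 red blood cell probes, and of 20 endothelial probes 9 were higher and 1 was lower (median 0.62). Their part in the result was not tested.

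**Figure D2:**
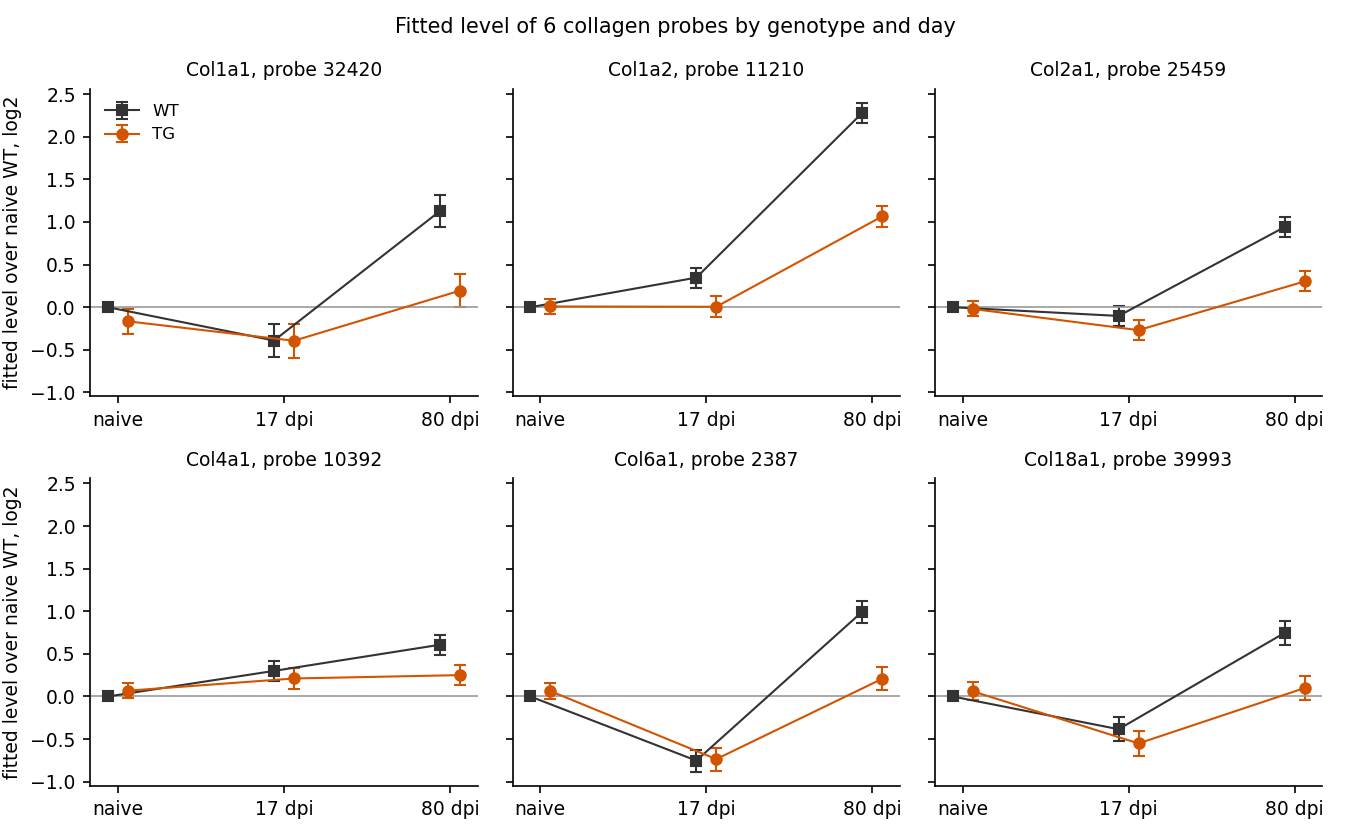
Fitted level of 6 collagen probes relative to naive WT (log2, with SE; the naive WT point is the reference and has no bar) in WT and TG cord, naive and at 17 and 80 dpi. Col1a2 reaches 2.28 in WT at 80 dpi, and Col6a1 lies at -0.75 in WT at 17 dpi before it rises. Lines only join points of one genotype. For each of the 6 genes called in TG against WT at 80 dpi, the probe with the lowest difference there was drawn. The gap between genotypes at 80 dpi follows in part from this choice.

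In TG cord 80 days after induction only Col1a2 probe 11210 was higher than in naive TG cord, by 1.06 ± 0.12 (3 animals against 3, adjusted p = 0.00326). Its ratio on the direct array of TG animals 27 and 8 was 1.12. That is 1 of 83 probes (1.2%), against 0.0206% of all probes called in either direction. At an unadjusted p under 0.05 there were 4 collagen probes. The call was lost without TG animal 27 or naive TG animal 8. Of the chains that rose in WT cord, Col1a1 probe 32420 was at 0.87 on the direct array and 0.36 ± 0.19 in the fit, probe 43637 at 0.32 ± 0.11, Col6a1 at 0.14 ± 0.13, Col18a1 probe 39993 at 0.04 ± 0.14 and Col4a1 probe 10392 at 0.18 ± 0.12, and none passed. Col2a1 probe 25459 did not pass either and was at 0.48 on the direct array. Its fitted level over naive WT was 0.30 in TG at 80 dpi and -0.02 in naive TG. Col3a1 lay between -0.04 and 0.21, Col5a1 at 0.18 ± 0.17 and -0.16 ± 0.18, and Col15a1 at 0.61 ± 0.43 and 0.04 ± 0.42. Both time comparisons at 80 dpi use TG and WT arrays in common, so the test of the difference between them is given further on.

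At 17 dpi in TG cord, 5 collagen probes were higher and 9 lower than in naive TG cord. These are 6.02% and 10.8% of the collagens, against 6.86% and 9.83% of all probes, so both shares were near those of the array. The 5 higher probes were Col19a1 probe 29313 of the FACIT class (0.52 ± 0.08, adjusted p = 0.00114), the network chain Col8a2 (0.66 ± 0.12), Col11a1 at 2 probes (0.39 ± 0.09 and 0.27 ± 0.09) and the transmembrane chain Col17a1 (0.32 ± 0.09). The lower ones included Col6a1 by 0.80 ± 0.13, Col18a1 at both probes by 0.61 ± 0.14 and 0.48 ± 0.09, Col4a2 probe 12471 by 1.01 ± 0.28 and Col27a1 by 0.52 ± 0.10. Col4a4, Col24a1, Col25a1 and Col5a3 had 1 lower probe each, between -0.43 and -0.28. Type I chains did not pass. Col1a2 probe 11210 was at -0.21 on the direct array of TG animals 1 and 5. Its fitted level over naive WT was 0.005 in TG at 17 dpi and 0.009 in naive TG. Col1a1 probe 32420 was at -0.23 ± 0.19 in the fit. Col3a1 was at 0.58 ± 0.22, -0.34 ± 0.18 and 0.41 ± 0.25. None of the 14 kept its call without TG animal 1 at 17 dpi or naive TG animal 5, the pair on the direct array.

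From 17 to 80 dpi in TG cord 9 collagen probes rose and 2 fell, which is 10.8% and 2.41%, against 6.53% and 4.08% of all probes. Col1a2 rose by 1.06 ± 0.12 (adjusted p = 0.000399), Col6a1 by 0.94 ± 0.13, Col4a2 probe 12471 by 1.12 ± 0.27, Col18a1 by 0.65 ± 0.14 and 0.46 ± 0.09, and Col2a1 by 0.57 ± 0.11. Col4a4, a type IV chain of restricted distribution, rose by 0.38 ± 0.10, Col5a3 by 0.36 ± 0.07 and Col27a1 by 0.34 ± 0.10. Col19a1 fell by 0.45 ± 0.08 and Col11a1 probe 12435 by 0.34 ± 0.09. Col1a1 probe 32420 was at 0.59 ± 0.19 (adjusted p = 0.0599) and did not pass, and Col3a1 was at -0.59 ± 0.22, 0.30 ± 0.18 and -0.19 ± 0.24. Col6a1 passed whichever of the 6 animals was left out, and the other 10 did not pass in at least 1 case.

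**Figure D3:**
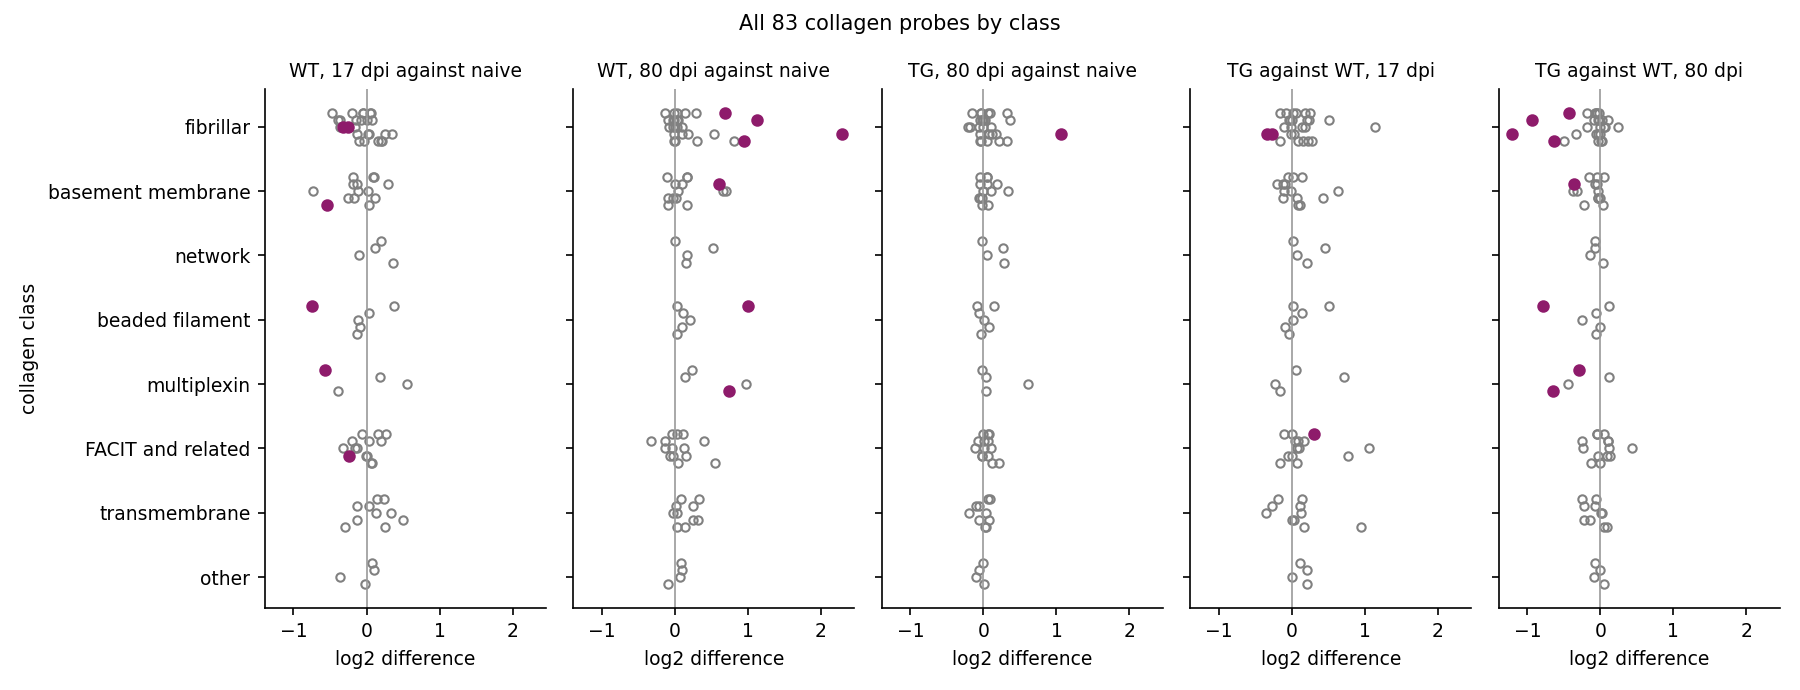
Log2 difference of all 83 collagen probes by class in 5 comparisons; filled points passed limma's test at an adjusted p under 0.05. At 80 dpi the filled points lie above 0 in WT over time and below 0 for TG against WT, and the multiplexin medians lie farthest from 0 (0.49 and -0.37).

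Before induction no collagen probe differed between TG and WT cord, as for 0% of all probes (3 animals against 3, limma). At an unadjusted p under 0.05 there was 1 collagen probe, Col11a1 probe 35098 at 0.35 ± 0.15, and the smallest adjusted p was 0.999969. By the size of the statistic the next highest were Col16a1 probe 24833 at 0.21 ± 0.15 and Col24a1 probe 20968 at 0.12 ± 0.09, and the lowest were Col4a3 probe 32397 at -0.12 ± 0.08, Col19a1 probe 18228 at -0.14 ± 0.11 and Col11a1 probe 12435 at -0.08 ± 0.07. Col1a2 probe 11210 was at -0.06, 0.18 and -0.15 on the 3 arrays. Col6a1 was at 0.27, -0.19 and 0.41, with the lowest value on the array with TG in Cy3. Both probes had values on either side of 0.

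At 10 dpi no collagen probe passed either, against 0.0274% of all probes, and 6 of 83 had an unadjusted p under 0.05. The smallest adjusted p was 0.358, for Col12a1, a FACIT chain of dense connective tissue, at 0.50 ± 0.14. Col24a1 probe 20968 (0.21 ± 0.09) and Col4a6 probe 3177 (0.16 ± 0.07) were next highest, and Col27a1 probe 5609 (-0.18 ± 0.07), Col2a1 probe 25459 (-0.17 ± 0.09) and Col25a1 probe 5853 (-0.14 ± 0.08) lowest. Col1a2 probe 11210 was at 0.20, -0.19, -0.32 and -0.15 on the 4 arrays, and Col1a1 probe 32420 at -0.07, -0.20, -0.12 and 0.24. Neither had 1 sign on all arrays. The 35 skeletal muscle probes had medians of 1.99 and 2.37 on both arrays of TG animal 1-5 and of -0.22 and -0.10 on the other 2, and their part in these values was not tested.

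At 17 dpi 1 collagen probe was higher in TG than in WT and 2 were lower (3 animals against 2). That is 1.2% and 2.41% of the collagens, against 4.56% and 8.45% of all probes, so the share of collagens called was below that of the array. Col1a2 probe 11210 was at -0.51, -0.46 and -0.08 on the 3 arrays, all below 0, and was lower by 0.34 ± 0.09 (adjusted p = 0.0215). Col5a3 was at -0.13, -0.16 and -0.30 and was lower by 0.27 ± 0.06 (adjusted p = 0.00755). Col19a1 probe 29313 was higher by 0.30 ± 0.06 (adjusted p = 0.00488), yet its 3 array values were -0.03, -0.01 and 0.54, the last with TG in Cy3, so that call rests on the fitted dye effect. Col1a2 did not pass without TG animal 1, TG animal 3 or WT animal 1, and Col5a3 not without TG animal 1. No basement membrane, network, beaded filament or multiplexin probe passed: the Col4a1 probes lay between -0.12 and 0.42, the Col8a1 probes at 0.45 ± 0.25 and 0.07 ± 0.05, and Col6a1 at 0.02 ± 0.10. Col3a1 was at 0.51 ± 0.17 (adjusted p = 0.0602), 0.28 ± 0.19 and -0.16 ± 0.14, Col1a1 between -0.08 and 0.05, and Col14a1 at 0.16 ± 0.13 and 1.06 ± 0.60.

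At 80 dpi 8 collagen probes of 6 genes lay lower in TG cord than in WT cord, and none lay higher. Both chains of type I collagen, type VI chain Col6a1, Col18a1, Col2a1 and Col4a1 made up the 8, and the differences ran from 0.29 to 1.22 on the log2 scale. The 8 probes are 9.64% of the collagens, against 1.43% of all probes that were lower and 0.224% that were higher. The median of the 83 collagen probes was -0.05, against 0.01 over all probes. Read in the order of the titles instead, 16 collagen probes were higher and 5 lower, with 9963 probes called in all.

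Col1a2 probe 11210 was at -1.26, -1.09, -1.47 and -0.96 on the 4 arrays. All 4 lie below every value of the other 3 times, and the fitted difference was -1.22 ± 0.08 (3 animals against 3, adjusted p = 1.82e-06), which is 2.32-fold lower in TG. Col1a1 probe 32420 was at -1.67, -1.19, -0.54 and -0.76, with the value nearest 0 on the only array with TG in Cy5. It was lower by 0.93 ± 0.13 (adjusted p = 0.00115). Col1a1 probe 43637 was at -0.18, -0.14, -0.86 and -0.20, so that 1 array stood apart, the one with TG in Cy5. With the fitted dye effect of -0.17 taken off, that array was at -0.68. The probe was lower by 0.43 ± 0.07 (adjusted p = 0.00559). The remaining probe of Col1a1, 38567, lay between -0.08 and 0.11, on both sides of 0. Col2a1 probe 25459 was at -0.73, -0.55, -0.53 and -0.70, and was lower by 0.64 ± 0.08 (adjusted p = 0.000378). Its range did not overlap that of naive mice, -0.06 to 0.08.

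In the basement membrane class 1 of 14 probes was lower. Col4a1 probe 10392 was at -0.24, -0.26, -0.49 and -0.26, with the lowest value on the array with TG in Cy5 and a fitted dye effect of -0.12. It was lower by 0.36 ± 0.08 (adjusted p = 0.0358), and its call was lost whichever of the 6 animals was left out. Its other probes were at -0.04 ± 0.16 and 0.00 ± 0.07, and the Col4a2 probes at -0.37 ± 0.19 and -0.22 ± 0.10. In the network class none of 4 passed, and the Col8a1 probes were at -0.08 ± 0.22 and -0.15 ± 0.05. Col6a1 was at -1.11, -1.07, -0.53 and -0.81, all below the -0.36 that was its lowest value at the other times. It was lower by 0.79 ± 0.09 (adjusted p = 0.000161), or 1.73-fold, and Col6a2 was at -0.25 ± 0.08 and -0.01 ± 0.08. Col18a1 probe 39993 was at -0.98, -0.69, -0.15 and -0.94 and was lower by 0.65 ± 0.10 (adjusted p = 0.00167). Its probe 22449 was at -0.41, -0.44, -0.12 and -0.40 and was lower by 0.29 ± 0.06 (adjusted p = 0.0214). For both probes the array with TG in Cy5 gave the value nearest 0. None of the 14 FACIT probes, 10 transmembrane probes or 4 other probes passed.

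Col1a2, Col6a1, Col2a1, Col1a1 probe 32420 and Col18a1 probe 39993 kept their call at 80 dpi whichever animal was left out, whereas Col18a1 probe 22449 lost it in all 6 cases and Col1a1 probe 43637 in 4. Fibrillar chains that did not pass were Col3a1 at -0.50 ± 0.17, -0.04 ± 0.12 and 0.02 ± 0.15, Col5a1 at -0.34 ± 0.11 and -0.06 ± 0.12, and Col5a2 at -0.08 ± 0.05. Averaging the probes of a gene before the fit left 5 collagen genes called, with 478 genes called in all. With the 4 arrays of 80 dpi alone, 8 probes were lower and 1 was higher, Col14a1 probe 34576 at 0.32. Of the 8 lower probes of the whole fit 6 were called there, and Col1a1 probe 32420 (-0.88) and Col18a1 probe 39993 (-0.51) were not.

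**Figure D4:**
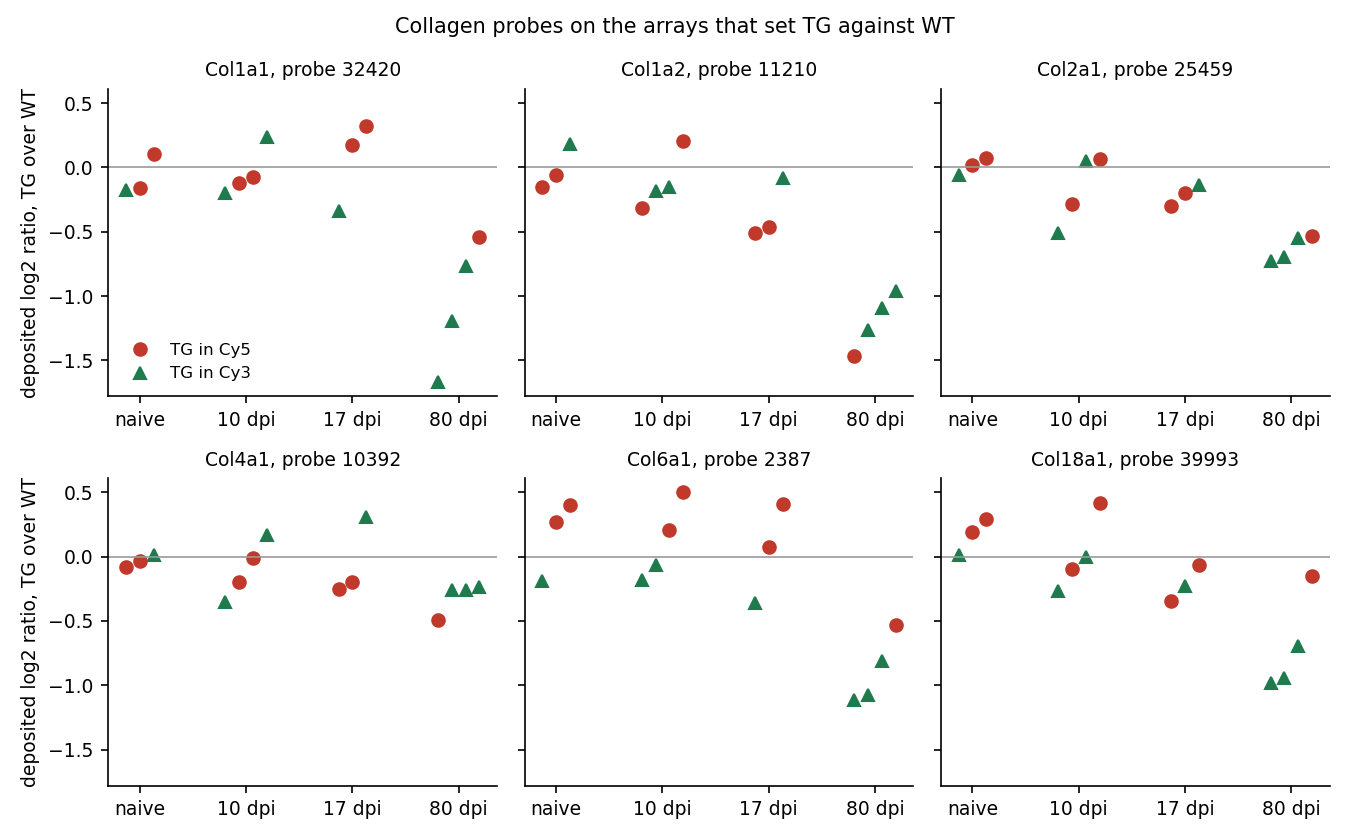
Deposited log2 ratio, read as TG over WT, of 6 collagen probes on each array that sets TG against WT, by time; circles are arrays with TG in Cy5 and triangles arrays with TG in Cy3. At 80 dpi all 4 arrays lie below 0 for each of the 6 probes, from -0.96 to -1.47 for Col1a2. For each of the 6 genes called at 80 dpi, the probe with the lowest fitted difference there was drawn. Values below 0 at 80 dpi therefore follow in part from this choice, and the other probes of these genes are not drawn.

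The genotype difference was then tested against that of naive mice. The difference between 80 dpi and naive passed for 4 collagen probes, all lower, or 4.82% of the collagens against 0.354% of all probes called in either direction. They were Col1a2 at -1.22 ± 0.11 (adjusted p = 0.000139), Col6a1 at -0.85 ± 0.12 (adjusted p = 0.00486), Col18a1 probe 39993 at -0.71 ± 0.13 (adjusted p = 0.0326) and Col2a1 at -0.62 ± 0.11 (adjusted p = 0.0222). Of these Col1a2 kept its call in all 12 cases with 1 animal left out, Col6a1 in 8, Col18a1 probe 39993 in 1 and Col2a1 in 0. The difference between 80 and 17 dpi passed for 5 probes, all lower, or 6.02% against 1.64% of all probes: Col1a2 at -0.87 ± 0.11, Col6a1 at -0.80 ± 0.12, Col1a1 at -0.93 ± 0.18 and -0.49 ± 0.10, and Col2a1 at -0.47 ± 0.11. Of these Col1a2 kept its call in all 11 cases with 1 animal left out and Col6a1 in 7, whereas Col1a1 probes 32420 and 43637 kept it in 5 and 2 and Col2a1 in 0. At 17 dpi against naive 1 was higher, Col19a1 at 0.36 ± 0.08, and 1 was lower, Col5a3 at -0.31 ± 0.08, against 6.7% of all probes, and they kept their calls in 7 and 3 of 11 cases. The difference between 2 time changes and that between 2 genotype differences are the same quantity in this fit. The estimated rise from naive to 80 dpi was thus smaller in TG than in WT cord at the called probes of Col1a2, Col6a1, Col2a1 and Col18a1. The amounts are those given for 80 dpi and naive, and only the call of Col1a2 held whichever animal was left out.

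The collagen probes did not vary over the arrays more than others as a group: 43 of 83 had an SD over the 20 arrays above the median of all probes, and their median SD was 0.315 against 0.311. Col1a2 probe 11210, with an SD of 0.961, was among the 8 above the 90th percentile. So were probes of Col14a1, Col13a1, Col24a1, Col4a5, Col15a1, Col25a1 and Col16a1, none of which passed a test between genotypes. Col4a5 probe 38644, a type IV chain of the X chromosome, was at -1.07, 2.59 and 0.32 on the 3 arrays of 17 dpi, and the highest of these is the pair of TG animal 3 with WT animal 4. At the other end, Col22a1 had an SD of 0.0808 and Col1a1 probe 38567 one of 0.0852, within the lowest 0.219% of all probes for the latter. Nothing in the table tells whether such a probe is silent in cord or steady.

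Genes that process and bind collagen were followed beside the chains. Of 49 probes for 33 collagen assembly genes, 2 were lower in TG at 80 dpi and none was higher: P4ha1, a subunit of prolyl 4-hydroxylase, by 0.41 ± 0.09, and Pcolce, the enhancer of procollagen cleavage, by 0.40 ± 0.08 (adjusted p = 0.032 and 0.0202). In WT cord from naive to 80 dpi 2 were higher, Serpinh1, the collagen chaperone, by 1.00 ± 0.23 and Pcolce by 0.61 ± 0.12 (adjusted p = 0.0493 and 0.0197). At 17 dpi 8.45% of all probes were lower in TG and 4.56% higher, and 2 of the 83 collagen probes were lower. Of the 49 assembly probes 8 were lower at that time and 1 was higher. The lowest were P4hb, which forms part of prolyl 4-hydroxylase and is also a general disulfide isomerase, by 0.69 ± 0.10 and Ppib, a cyclophilin of the endoplasmic reticulum, by 0.39 ± 0.06, and P3h1 was higher by 0.33 ± 0.10. P4hb and Ppib were higher in WT at 17 dpi than in naive WT, by 0.57 ± 0.14 and 0.80 ± 0.07. Both serve many secreted proteins besides collagen.

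Of 21 probes for 10 collagen receptor genes, 3 were lower in TG at 80 dpi, 2 of them probes of Lair1, an inhibitory collagen receptor of leukocytes, by 0.97 ± 0.16 and 0.90 ± 0.20. Lair1 was also lower in TG at 17 dpi, by 1.57 ± 0.18 and 1.66 ± 0.23, and was higher in WT at 17 dpi than in naive WT by 1.73 ± 0.23 and 2.10 ± 0.30. The collagen uptake receptor Mrc2 was higher in TG at 17 dpi by 0.31 ± 0.08. Of 26 probes for 15 basement membrane partners, 5 were lower in TG at 80 dpi, with the laminin chains Lamb2 at -0.63 ± 0.10 and Lama2 at -0.49 ± 0.09 the lowest by the statistic. In WT cord 5 of these rose from naive to 80 dpi, led by Lama4 at 1.40 ± 0.21 and Lamb2 at 1.07 ± 0.14.

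Markers of the cell types that make collagen were read on the same arrays. Of 20 probes for 15 meningeal and perivascular fibroblast genes, 7 were lower in TG at 80 dpi, none was higher, and the list's median was -0.62, -0.33, -0.40 and -0.28 on the 4 arrays. Decorin (Dcn probe 29845) was lower by 1.39 ± 0.16 and matrix Gla protein (Mgp) by 1.08 ± 0.16, whereas Dcn probe 37035 was at 0.47 ± 0.25 and Pdgfra at 0.01 ± 0.06. From naive to 80 dpi 8 of these probes rose in WT cord and 4 in TG cord, with medians of 0.61 and 0.31. In WT cord Mgp rose by 2.88 ± 0.23 and Igf2 by 2.72 ± 0.23. At 17 dpi, when 2 collagen probes were lower in TG, none of the 20 passed and the median was 0.04. The part of these cells in the collagen differences was not tested.
Other lists were read in the same way at 80 dpi. The macrophage and microglia list had 13 of 21 probes lower in TG and a median of -1.27, and at 17 dpi it had 16 lower and a median of -1.56. Of 19 pericyte and smooth muscle probes 2 were lower, of 7 Schwann cell and nerve root probes 1, and of 16 astrocyte probes 3, including 2 of 3 probes of Gfap itself at -0.86 ± 0.19 and -1.08 ± 0.24 (adjusted p = 0.0295 and 0.0301). Among 20 endothelial and 21 cartilage and bone probes none passed, with medians of 0.02 and -0.01. The skeletal muscle median was 0.69 and 0.61 on the arrays of TG animals 21 and 27 and 0.05 and -0.13 on those of TG animal 26.
Of 8 red blood cell probes 3 were higher in TG at 80 dpi, with a median of 0.84. Of 20 neuronal and 15 oligodendrocyte probes 1 each was higher, with medians of 0.34 and 0.19. The part of these cell types in the collagen differences was not tested.

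**Figure D5:**
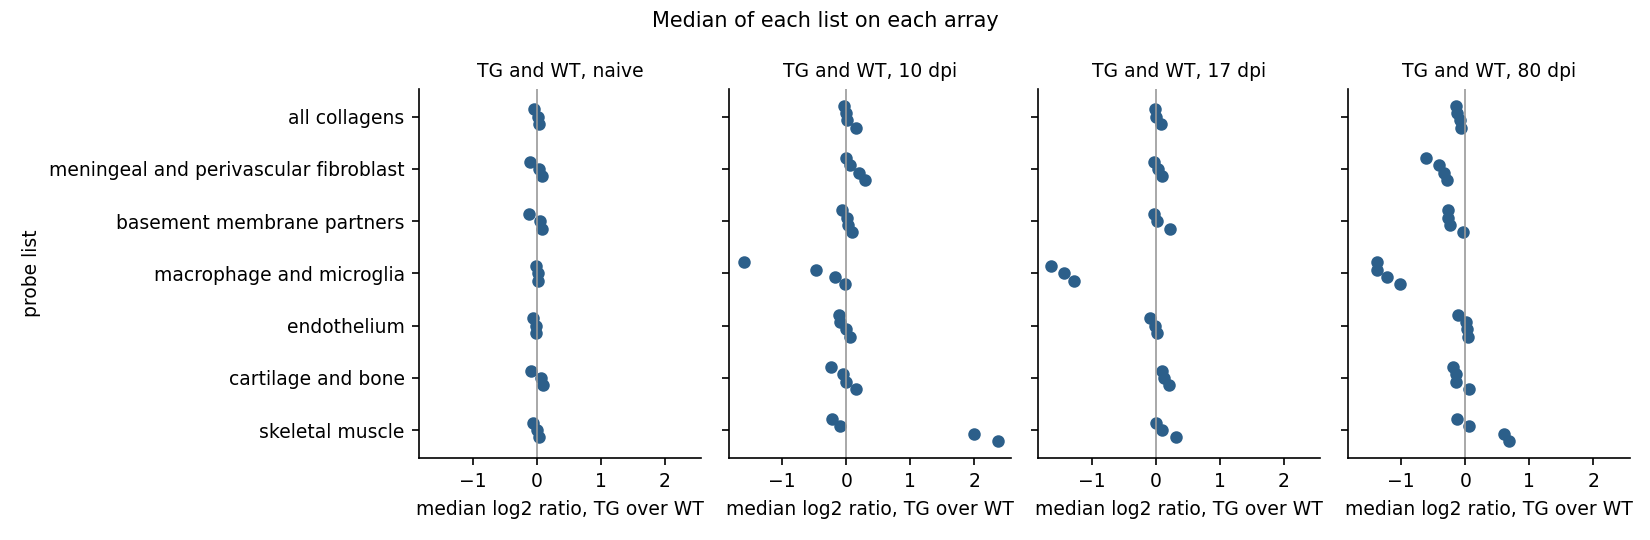
Median deposited log2 ratio, read as TG over WT, of each probe list on each array that sets TG against WT; each point is 1 array. At 80 dpi the fibroblast list lies between -0.62 and -0.28 and the macrophage and microglia list near -1.27, while the median of all 83 collagen probes stays close to 0 at every time.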

How the data were processed

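Spinal cord RNA of 2 animals was hybridised to each of 20 two-colour arrays. The deposited values are log ratios, taken as log2, that the authors had normalized by loess within and by quantiles between arrays in limma, per the series' design text. The base and the direction of the log ratios are not stated there. The members and lists were chosen with earlier results of these data known. From these values a generalized least squares model was fitted to each of 43779 probes with R 4.3.3, using coefficients for the groups and for the dye and a correlation between arrays that share an animal (estimated at 0.0041), followed by limma 3.58.1's empirical Bayes step (13 residual and 1.92 prior degrees of freedom). Each probe had 1 dye coefficient for all 20 arrays. Dye differences at 10 dpi correlated with those in naive mice and at 17 and 80 dpi at only 0.03 to 0.07. The fitted values and SEs rest on this shared coefficient. Adjusted p-values are Benjamini-Hochberg over all probes. Each probe was tested on its own and not averaged. Named were all collagen probes past the threshold (beyond 12, the 6 highest and 6 lowest by the statistic; with none, the 3 highest and 3 lowest) and a fixed set of 15 chains, and from each related list the 2 highest and 2 lowest. Animals are the replicates of the design, and nothing says how they were allocated to arrays. With the correlation estimated at 0.0041, the fit treated repeated arrays of an animal as nearly independent. The SEs and degrees of freedom therefore reflect arrays more than animals. The number of animals limits the precision. Of all features, 32042 carry 1 gene symbol, 47 several and 12201 none here; symbols follow the platform's annotation, updated by gene number. The model was tested on simulated data before use. Alternatives were the title order, no dye term, independent arrays, scaled arrays, no filter on missing values, single times, gene averages and leaving out each animal.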

Additional observations from a re-analysis of the deposited data

Results flagged for a closer look

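Of 14 Dixon tests on the arrays that set TG against WT, run on the collagen probes called at 80 dpi and on those highest and lowest at 10 dpi, with the fitted dye effect taken off, 2 found an array apart from the rest of its group; chance finds about 1 in 20. At 80 dpi Col1a1 probe 43637 stood at -0.68 on the array pairing TG animal 26 with WT animal 15, and Col4a1 probe 10392 at -0.35 on the array pairing TG animal 26 with WT animal 13. With the dye effect of -0.12 taken off, all 80 dpi values of this Col4a1 probe lay close together. The flagged Col4a1 array thus differed from the rest by a very small amount.

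The genotype difference changed between times, by the test of that change, for the probes that follow. From naive to 17 dpi it changed by 0.36 for Col19a1 and by -0.31 for Col5a3. From naive to 80 dpi it changed by -1.22 for Col1a2, -0.85 for Col6a1, -0.71 for Col18a1 probe 39993 and -0.62 for Col2a1. From 17 to 80 dpi it changed by -0.87 for Col1a2, -0.80 for Col6a1, -0.47 for Col2a1, and by -0.93 and -0.49 for Col1a1 probes 32420 and 43637.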

How the results depend on the processing

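Read in the order of the titles, the collagen probes called for TG against WT numbered 7 in naive mice (5 higher, 2 lower) and 6 at 10 dpi (5 higher, 1 lower). At 17 dpi they numbered 0 and at 80 dpi 21 (16 higher, 5 lower). Over all probes 3806, 3480, 0 and 9963 were called, in the same order. Collagen calls numbered 0 in every time comparison and in every comparison of genotype differences, where 0 to 29 of all probes were called. That reading reversed the values of TG against WT at 80 dpi for Col1a2 (0.55), Col6a1 (0.64), Col2a1 (0.34), Col1a1 probe 32420 (0.75), Col18a1 probes 39993 (0.55) and 22449 (0.26), Col4a1 probe 10392 (0.063), Col4a2 probe 12471 (0.70), Col6a2 probe 16731 (0.43) and Col8a1 probe 19838 (0.17). It also reversed Col4a1 probe 31106 in naive mice (0.29) and Col19a1 at 17 dpi (-0.025); in WT from naive to 17 dpi Col18a1 probe 22449 (0.027), Col9a2 (0.17) and Col27a1 (0.31); in WT from naive to 80 dpi Col4a1 probe 10392 (-0.42), Col1a1 probes 32420 (-0.026) and 43637 (-0.22), Col2a1 (-0.11) and Col1a2 (-0.57); in WT from 17 to 80 dpi Col9a3 (-0.060) and Col27a1 (-0.0036); and in TG from naive to 17 dpi Col11a1 probe 44208 (-0.036). Without the dye term, TG against WT had 0 calls at 17 dpi and 5 at 80 dpi, with 2195 and 409 over all probes. The time comparisons had 2 (17 dpi against naive), 3 (80 dpi against naive) and 7 (80 against 17 dpi) in WT, with 4233, 265 and 1431 over all probes. In TG they had 1 (17 dpi against naive) and 4 (80 against 17 dpi), with 1425 and 596 over all probes. The changes of the genotype difference had 0 (17 dpi less naive), 2 (80 dpi less naive) and 2 (80 less 17 dpi), with 1051, 89 and 262 over all probes. With scaled arrays the calls numbered 3 in WT and 9 in TG at 17 dpi against naive, with 4207 and 4575 over all probes. They numbered 6 in TG at 80 against 17 dpi and 1 for 17 dpi less naive, with 1164 and 1444 over all probes. With the arrays of 17 dpi alone 0 were called, as over all probes. With those of 80 dpi alone 9 were called (1 higher, 8 lower), and 1251 over all probes. With probes averaged per gene, TG against WT had 1 call at 17 dpi and 5 at 80 dpi, with 2846 and 478 over all genes. WT at 80 against 17 dpi had 7, with 1922 over all genes. TG had 7 (17 dpi against naive), 0 (80 dpi against naive) and 6 (80 against 17 dpi), with 2959, 8 and 1749 over all genes. The changes of the genotype difference had 0 (17 dpi less naive) and 3 (80 less 17 dpi), with 1415 and 361 over all genes. The cause was not tested in any of these. Leaving out each animal gave 0 calls in naive mice and at 10 dpi, 1 to 14 at 17 dpi (14 without TG animal 7 or WT animal 1, with 10080 and 11648 probes called in all) and 5 to 6 at 80 dpi for TG against WT. In WT it gave 0 to 15 (17 dpi against naive, the 15 with 12673 called in all), 1 to 7 (80 dpi against naive) and 7 to 14 (80 against 17 dpi, the 14 with 7004 called in all). In TG it gave 0 to 20 (the 20 with 11063 called in all), 0 to 1 and 1 to 19 (the 19 with 8017 called in all) in the same order. For the changes of the genotype difference it gave 0 to 4 (17 dpi less naive), 1 to 2 (80 dpi less naive) and 1 to 6 (80 less 17 dpi). No paired analysis was possible because the numbers in the titles name animals within a group and do not pair groups. The number of animals, 2 or 3 a group, and the single direct array behind each time comparison limit what could be told.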

Other observations

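On the arrays that set TG against WT, the difference in mean log ratio between arrays with TG in Cy5 and arrays with TG in Cy3 was compared between times over 43207 probes, which are not independent of each other. It correlated at r = 0.83 between naive and 80 dpi, 0.51 between naive and 17 dpi and 0.60 between 17 and 80 dpi, and at 0.03, 0.07 and 0.03 between 10 dpi and naive, 17 dpi and 80 dpi. The first feature of the table, which carries no gene, had the sign of the dye on 16 of the 16 arrays outside 10 dpi and on 0 of the 4 arrays of 10 dpi. Probes of one collagen gene often differed in what they showed: Col1a2 probe 2615 was at -0.18 ± 0.23 for TG against WT at 80 dpi, where probe 11210 was at -1.22 ± 0.08, and Col2a1 probes 3056 and 21461 lay at -0.04 ± 0.06 and 0.00 ± 0.05, where probe 25459 was at -0.64 ± 0.08.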
